A study of Homo sapiens with 4 samples.

Results

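The 9 genes described here make, brake and break down glycogen, and they were followed in U87 cells, an established human glioblastoma line. They are PGM1, UGP2, GYG1, GYS1, GBE1, PPP1R3B, PPP1R3C, PYGL and PYGB, found by symbol in both deposited gene tables, out of 18217 symbols that the tables share. The study measured transcripts by RNA-seq in 4 libraries, 1 per group. Wild-type (WT) cells were kept in normoxia or in hypoxia (1% O2), and shRNA cells, carrying either a scrambled hairpin (shScr) or a hairpin that targets ALKBH5 (shALKBH5), were kept in hypoxia only. All cells grew in medium with serum, and the labels do not say whether the shRNA cells were a clone or a pool. The series asked which hypoxia-induced genes depend on ALKBH5, an RNA demethylase that erases m6A. The 9 genes were chosen by function, with their FPKM values and both changes in these libraries already known, so their levels and changes are a description and carry no test.

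Glycogen is a branched store of glucose kept by most cells, and brain tumour cells and astrocytes both make it. Phosphoglucomutase (PGM1) moves the phosphate of glucose 6-phosphate, UDP-glucose pyrophosphorylase (UGP2) activates the sugar, glycogenin (GYG1) primes the chain, glycogen synthase (GYS1) extends it and the branching enzyme (GBE1) branches it. Glycogen phosphorylase, in a liver form (PYGL) and a brain form (PYGB), releases the sugar again. PPP1R3B and PPP1R3C bring protein phosphatase 1 to the glycogen particle, where it switches synthase on and phosphorylase off. Hypoxia is known to raise glycogen in several cell types through the hypoxia-inducible factors (HIF), which bind short DNA elements with an ACGTG or GCGTG core.

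The promoters of 4 of the genes are shown because 3 of them, PPP1R3C, GYS1 and GBE1, stood far higher in hypoxia, while the other one, GYG1, stood far lower. Each window runs from 250 bases before the RefSeq start of the gene to 50 bases after it (GRCh38.p14), 5′ to 3′ on the strand of the gene, and capitals mark every ACGTG or GCGTG on either strand.

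PPP1R3C (chr10:91633022-91633321, minus strand): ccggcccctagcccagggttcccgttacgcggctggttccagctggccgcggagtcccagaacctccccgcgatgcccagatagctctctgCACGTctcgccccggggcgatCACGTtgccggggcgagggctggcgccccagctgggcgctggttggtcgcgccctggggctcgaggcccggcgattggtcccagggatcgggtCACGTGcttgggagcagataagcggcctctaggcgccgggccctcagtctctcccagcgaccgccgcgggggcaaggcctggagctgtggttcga
GYS1 (chr19:48993260-48993559, minus strand): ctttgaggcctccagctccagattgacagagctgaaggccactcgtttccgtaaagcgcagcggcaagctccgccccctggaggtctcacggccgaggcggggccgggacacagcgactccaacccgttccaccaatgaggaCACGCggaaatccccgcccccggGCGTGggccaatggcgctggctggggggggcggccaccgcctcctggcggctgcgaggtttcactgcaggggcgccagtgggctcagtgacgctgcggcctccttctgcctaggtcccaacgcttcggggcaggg
GBE1 (chr3:81761596-81761895, minus strand): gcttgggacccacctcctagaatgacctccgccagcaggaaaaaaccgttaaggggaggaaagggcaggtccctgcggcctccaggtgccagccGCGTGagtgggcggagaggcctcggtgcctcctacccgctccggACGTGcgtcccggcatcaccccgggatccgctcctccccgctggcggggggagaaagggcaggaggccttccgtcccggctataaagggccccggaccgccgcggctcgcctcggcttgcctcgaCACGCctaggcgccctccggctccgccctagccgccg
GYG1 (chr3:148991290-148991589, plus strand): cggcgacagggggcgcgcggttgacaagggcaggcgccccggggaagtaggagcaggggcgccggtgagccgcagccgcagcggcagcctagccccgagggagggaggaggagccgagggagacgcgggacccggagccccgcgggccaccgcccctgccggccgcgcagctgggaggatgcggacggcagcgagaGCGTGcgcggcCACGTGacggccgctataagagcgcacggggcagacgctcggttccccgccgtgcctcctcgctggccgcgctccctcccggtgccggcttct

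PPP1R3C held 4 matches, all of them ACGTG. A pair of these overlap in 1 CACGTG palindrome whose first base lies 45 bases before the start, so the palindrome counts on both strands, and the others lie 159 and 138 bases before it. GYG1, which moved the other way, held the same palindrome 43 bases before its start and 1 GCGTG besides. GYS1 held 2 GCGTG and no ACGTG, and GBE1 held 1 ACGTG and 2 GCGTG. RefSeq windows were found for 8 of the 9 genes, 11 windows in all, and 8 of these windows, from 7 genes, held at least 1 of the cores. PYGL, higher in hypoxia, held neither core in its window. PPP1R3B has no entry. The cores are common. Of all 35116 promoter windows 48.4% held at least 1, with ACGTG in 21.4%, GCGTG in 36.5% and the palindrome CACGTG in 7.26%. The share was 61.5% among windows of genes past the expression filter in the WT table and 58.6% among windows of genes at least 2-fold higher in hypoxia. It was 65.9% among windows of genes at least 2-fold lower in hypoxia, where 13.0% held the palindrome, beside 9.76% for the higher genes. A match is a description of these letters and no evidence of binding.

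Levels are given in FPKM, that is fragments per kilobase at a common library size. Levels of different genes therefore depend on the length each gene is given. For the shRNA libraries UGP2 is given 6501 bases, against 2338 in its longest protein-coding transcript, and PPP1R3C 2524 bases in both. The lengths behind the WT values are unknown. Each group is a single library, so differences cannot be set against replicate error and no p-value is given. Changes are differences of log2(FPKM + 1), which understate the change of low genes, and a gene is counted when it is at least 2-fold higher or lower on that scale and its mean over the compared pair is 1 FPKM or more. In bulk RNA, a change in each cell and a change in the make-up of the culture cannot be told apart. The shRNA table gives gene lengths, from which 17859370 reads were recovered for shScr and 16780154 for shALKBH5, and intervals there are 95% exact (Clopper-Pearson) intervals of the read ratio that cover counting error only. They surround the plain ratio, with no constant added, and not the change with 1 FPKM added that is printed beside them. For the WT libraries the depth is unknown. ALKBH5 itself was listed at 186 FPKM in shScr against 113 FPKM in shALKBH5. As deposited, the library labelled as its knockdown thus kept 0.608 of the control level. The log2 change of ALKBH5, -0.71, did not reach the 2-fold rule and ranked 920 from the bottom of 10925 genes. It lies in the most abundant of 10 equal bins of genes, where the median gene changed by -0.34. Scaling to total recovered reads or to TPM moves its plain read ratio up, by 0.18 or 0.26 on the log2 scale. Of 8 glial and glioma markers, 4 reached 1 FPKM in any library, with VIM (3079.25 FPKM in WT normoxia) high and GFAP at or below 0.229 FPKM throughout. The summed level of 5 macrophage markers was 291.4 and 257.5 FPKM in the WT libraries and 4.59 and 2.67 FPKM in the shRNA libraries. CD68 alone made nearly all of the WT sum, at 289.81 and 254.53 FPKM, against 0.15 FPKM with shScr and 0 with shALKBH5. Levels are therefore not compared between the tables, and any set side by side is named as such.

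In WT cells most of the 9 glycogen genes, though not PYGB, were among the stronger differences between hypoxia and normoxia. Of the 9, 6 were at least 2-fold higher in hypoxia (PPP1R3C, GYS1, PPP1R3B, GBE1, PGM1 and PYGL), 1 was at least 2-fold lower (GYG1), and UGP2 and PYGB lay between. Of all 11050 genes past the filter 7.41% were counted as higher and 14.7% as lower. Centred on the median gene, 7 of the 9 were higher and 1 lower, beside 11.9% and 5.73% of all genes. The median change was 2.06 over the 9 genes and -0.35 over all genes. All 9 had at least 1 FPKM in every library, so none passed the filter only through the library where it was high.

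Markers of other cell types also differed between the WT libraries. Of 4 fibroblast and pericyte markers 2 reached 1 FPKM, COL1A1 at 35.2 FPKM in normoxia and 160.79 FPKM in hypoxia (log2 change 2.16) and PDGFRB at 0.73 and 10.85 FPKM (2.78), and the 4 summed to 36.15 and 172.59 FPKM. THY1, a defining marker of that list, was at 0.03 FPKM and 0. Of 4 endothelial markers 2 reached 1 FPKM, KDR at 15.23 and 2.2 FPKM (-2.34) and PECAM1 at 0.69 and 2.5 FPKM (1.05), and the 4 summed to 15.93 and 4.72 FPKM, with CDH5 at 0 in both. In the shRNA libraries, shScr first, the fibroblast and pericyte sum was 143.7 and 195.2 FPKM and the endothelial sum 2.09 and 2.58 FPKM. Their part in the changes of the glycogen genes was not tested.

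The genes that feed UDP-glucose into glycogen were higher by unequal amounts. PGM1 stood at 36.07 FPKM in normoxia and 153.87 FPKM in hypoxia, a log2 change of 2.06. UGP2 stood at 34.46 and 68.46 FPKM, a log2 change of 0.97, just under the 2-fold rule. PGM1 and UGP2 thus had like levels in normoxia, with a PGM1 to UGP2 ratio of 1.05, and stood 2.25 to 1 in hypoxia. UGP2 passed the rule, at 1.32, when changes were centred on the median gene.

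The primer and the polymerising enzymes moved in opposite directions. GYG1 (ENSG00000163754, GRCh38 chromosome 3, 148991341 to 149027668), whose protein primes the chain, stood at 47.2 FPKM in normoxia, the highest of the 9 genes there, and at 11.46 FPKM in hypoxia. Its log2 change of -1.95 was rank 127 from the bottom of the 11050 genes. GYS1 (ENSG00000104812, GRCh38 chromosome 19, 48968125 to 48993310), the synthase, stood at 18.65 and 122.75 FPKM, a log2 change of 2.65, and GBE1, the branching enzyme, at 26.72 and 155.16 FPKM, a log2 change of 2.49. GYS1 and GBE1 kept close proportions, with a GBE1 to GYS1 ratio of 1.43 in normoxia and 1.26 in hypoxia. The GYS1 to GYG1 ratio, by contrast, was 0.395 in normoxia and 10.7 in hypoxia. Ratios of genes within a library do not depend on how the library was scaled, though they do depend on the gene lengths used.

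The targeting subunits of protein phosphatase 1 had the lowest levels of the 9 genes in normoxia and the highest plain ratios of hypoxia to normoxia. PPP1R3C (ENSG00000119938, GRCh38 chromosome 10, 91628442 to 91633054) stood at 6.39 FPKM in normoxia and 91.4 FPKM in hypoxia, a log2 change of 3.64 and a plain ratio of 14.3, the 39th highest change of the 11050 genes. PPP1R3B, also called the liver targeting subunit, stood at 2.66 and 20.03 FPKM, a log2 change of 2.52 and a plain ratio of 7.53. GYS1, with a plain ratio of 6.58, ranked above PPP1R3B only on the scale with 1 FPKM added.

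The phosphorylases split. PYGL, the liver form, stood at 15.31 FPKM in normoxia and 58.47 FPKM in hypoxia, a log2 change of 1.87. PYGB, the brain form, stood at 17.66 and 9.91 FPKM, a log2 change of -0.77 that did not reach 2-fold. Nearly equal in normoxia, the pair thus stood 5.9 to 1 in favour of PYGL in hypoxia. The median gene in the abundance bin of PYGB, of 10 equal bins, changed by -0.48. Centred on the median gene, PYGL was at 2.22 and PYGB at -0.42.

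**Figure D1:**
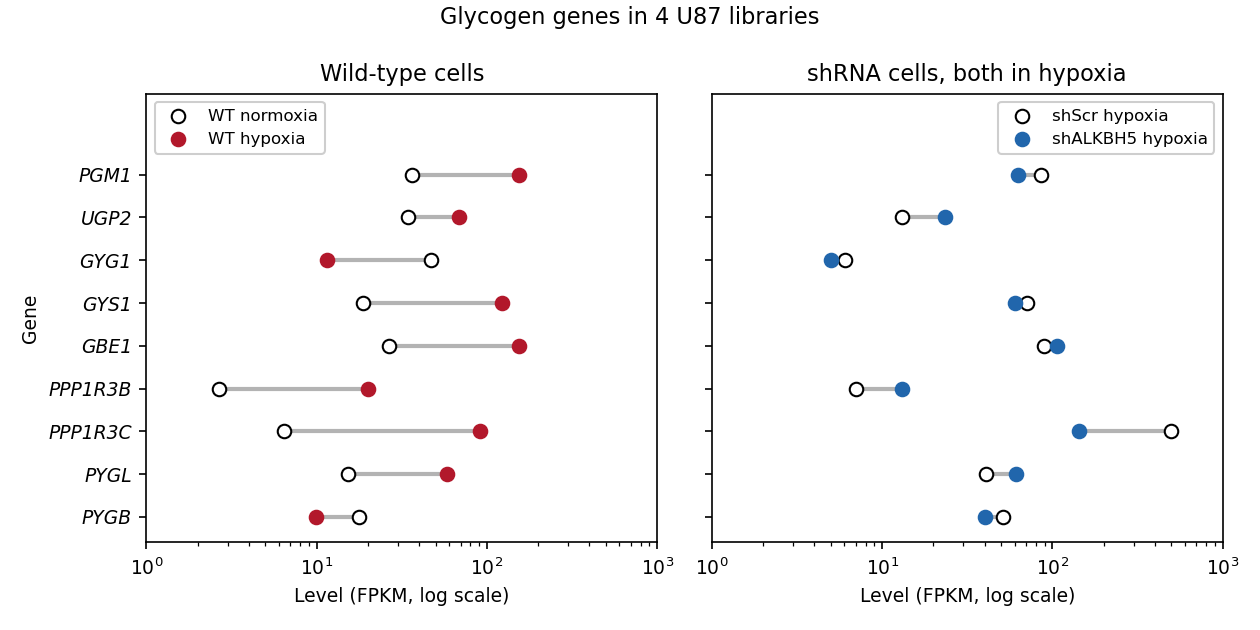
Level of each of the 9 glycogen genes in FPKM on a log axis, with 1 point per library and a grey line joining the libraries of a table; WT libraries are on the left and shRNA libraries on the right. In WT cells 7 genes lie to the right in hypoxia, with PPP1R3C moving farthest (6.39 to 91.4 FPKM) and GYG1 and PYGB to the left; in the shRNA cells the widest gap is PPP1R3C, from 498 FPKM with shScr to 144 FPKM with shALKBH5.

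Within each enzyme family, shares of the summed FPKM showed which form made up most of the transcript. PYGL was 46.4% of the phosphorylase transcript in WT normoxia and 85.5% in WT hypoxia. In the other table it was 44.2% with shScr and 60.3% with shALKBH5, both hypoxic. Such shares are free of library scaling, though not of differences in gene models between the tables. Counted as reads, the PYGL share was 45.9% (exact 95% interval 44.7 to 47.1) with shScr and 62.0% (60.9 to 63.1) with shALKBH5. The muscle form, PYGM, stood at or below 0.038 FPKM in all 4 libraries.

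GYS1 and GYG1 were practically the sole forms of their families, since GYS2, the liver synthase, and GYG2 stood at or below 0.02 FPKM in every library. PGM1 made up 76.6% of the phosphoglucomutase transcript in WT normoxia and 95.0% in WT hypoxia, while PGM2, a paralogue that acts mostly on pentose phosphates, went from 10.18 to 7.3 FPKM. PPP1R3C was 43.2% of the targeting-subunit transcript in WT normoxia, 75.9% in WT hypoxia, 94.5% in shScr and 81.1% in shALKBH5. PPP1R3B was 18.0%, 16.6%, 1.34% and 7.34% in the same order. PPP1R3C was therefore the main targeting subunit in each library, and by the widest margin with shScr.

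**Figure D2:**
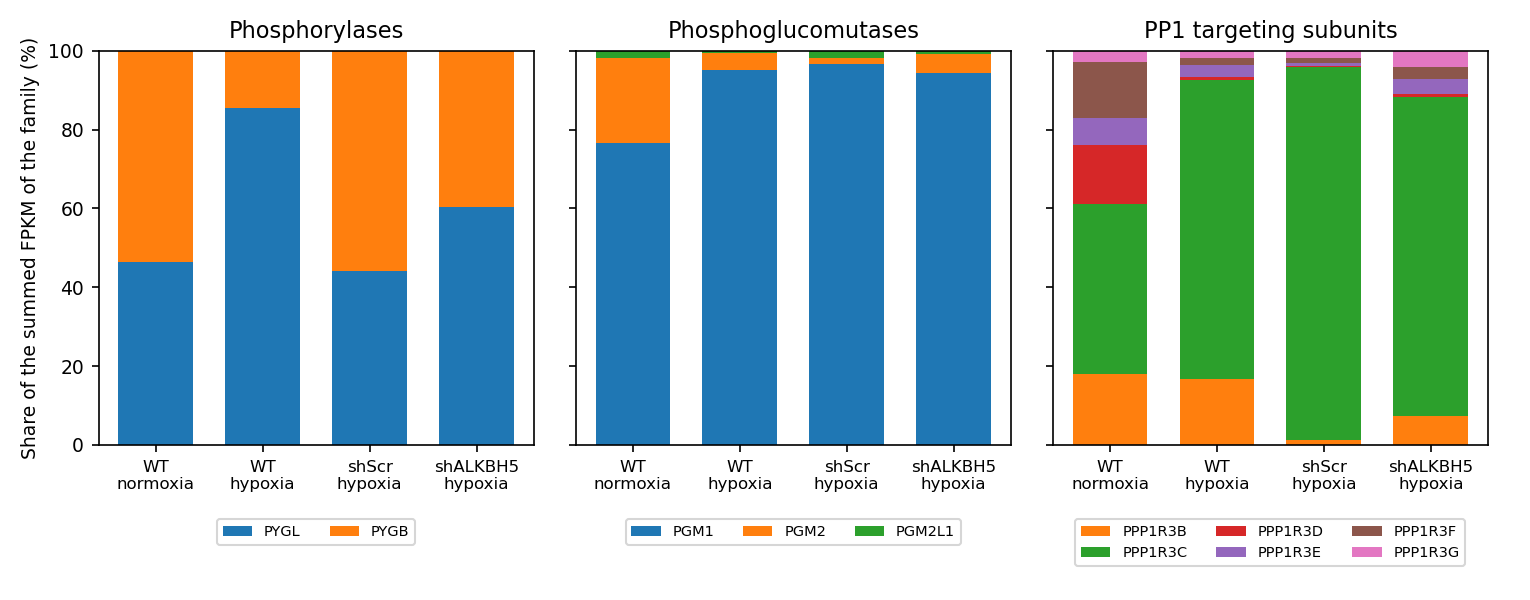
Share of each gene in the summed FPKM of its family, in percent, for the phosphorylases, the phosphoglucomutases and the protein phosphatase 1 targeting subunits, with 1 bar per library; genes that never reach 0.5% are not drawn. PYGL makes 85.5% of the phosphorylase bar in WT hypoxia and 44.2% with shScr, and PPP1R3C makes 43.2% of the targeting-subunit bar in WT normoxia and 94.5% with shScr.

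The wider pathway went both ways in hypoxia. Of 45 other genes in 12 lists, 35 passed the filter in the WT table, with 7 at least 2-fold higher in hypoxia, 4 lower and a median change of -0.15. The higher share was 20.0% and the lower share 11.4%, beside 7.41% and 14.7% over all genes. The hexokinase genes, which trap glucose in the cell, were among the higher ones. HK2 stood at 14.31 FPKM in normoxia and 63.96 FPKM in hypoxia (log2 change 2.09), and HK1 at 131.4 and 271.32 FPKM (1.04). Both genes of the lysosomal route were higher, with the starch-binding protein STBD1 at 1.24 and the acid glucosidase GAA at 1.17. So were the minor targeting subunits PPP1R3E (1.22) and PPP1R3G (1.19), from 1.02 and 0.43 FPKM in normoxia. PPP1R3G, at 2.26 FPKM in hypoxia, passed the filter only through the library where it was high, and it is counted among the 7.

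The subunits of phosphorylase kinase, which switches phosphorylase on, were unequal. Of its 4 subunit genes past the filter, PHKA1 (-1.34) and PHKB (-1.07) were at least 2-fold lower, beside 14.7% of all genes. PHKA2 (-0.15) and PHKG2 (0.002) lay above the all-gene median of -0.35. The subunits of AMPK, an energy sensor that binds glycogen through its beta subunit, were mixed. PRKAB2, one of the beta subunits, was higher at 1.11, while PRKAG2 (-1.49) and PRKAA1 (-1.0) were lower. Centred on the median gene, 8 of the 35 were higher and 1, PRKAG2 at -1.14, was lower, beside 11.9% and 5.73% of all genes. PHKA1, PHKB and PRKAA1 then no longer reached 2-fold.

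As deposited, no gene was at least 2-fold in either direction among the glycogen synthase kinases GSK3A and GSK3B, the catalytic subunits of protein phosphatase 1, or the 7 genes that use UDP-glucose or belong to galactose metabolism. Of the last group, the galactokinase GALK1 was just past the rule when centred, at 1.0.

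The second comparison set shALKBH5 against shScr, both in hypoxia. Of the 9 genes PPP1R3C alone passed the 2-fold rule, and it was lower. Of all 10925 genes past the filter 3% were counted as lower and 1.76% as higher. PPP1R3C was at 498 FPKM in shScr, from 18673 reads, and at 144 FPKM in shALKBH5, from 5758 reads. The log2 change was -1.78 (counting interval -1.83 to -1.75), and it ranked 39 from the bottom of the 10925 genes. In the most abundant of 10 equal bins of genes, which holds PPP1R3C, GYS1, GBE1, PGM1 and PYGL, the median change was -0.34. The part of that shift in their changes was not tested. Set across the tables, the shScr level of PPP1R3C was far above its 91.4 FPKM in WT hypoxia, and the shALKBH5 level lay between them.

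PPP1R3B, the other targeting subunit, went the opposite way. It stood at 7.06 FPKM with shScr (606 reads) and 13.0 FPKM with shALKBH5 (1193 reads), a log2 change of 0.80. Its plain read ratio was 0.88 on the log2 scale, with an interval from 0.74 to 1.03. The PPP1R3C to PPP1R3B ratio was 70.5 with shScr and 11.05 with shALKBH5. In the WT cells that ratio was 2.40 in normoxia and 4.56 in hypoxia, and being a ratio within a library it is free of library scaling, though not of differences in gene models between the tables.

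The precursor enzymes diverged. UGP2 stood at 13.1 and 23.4 FPKM, a log2 change of 0.79. Its plain read ratio was 0.84 on the log2 scale (interval 0.74 to 0.94). PGM1 stood at 86.1 and 63.2 FPKM (-0.44, interval -0.51 to -0.39). The PGM1 to UGP2 ratio was 6.58 with shScr and 2.70 with shALKBH5. Neither gene reached 2-fold as deposited.

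The enzymes that build the chain differed little. GYS1 stood at 71.0 and 60.6 FPKM, a log2 change of -0.23, which turned to 0.03 under TPM. GBE1 stood at 89.8 and 107 FPKM, a change of 0.25. GYG1 stood at 6.07 and 5.01 FPKM, from 317 and 279 reads, the fewest of the 9 genes, a change of -0.23. Its plain read ratio, -0.28 on the log2 scale, had the widest interval, from -0.51 to -0.04. Of the phosphorylases, PYGL stood at 40.6 and 61.1 FPKM (0.58, interval 0.52 to 0.66) and PYGB at 51.4 and 40.2 FPKM (-0.35, interval -0.43 to -0.28). The PYGL to PYGB ratio was 0.791 with shScr and 1.52 with shALKBH5.

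Another scaling moves all plain ratios of reads alike, so it keeps their order and shifts the position of 0. Scaling to total recovered reads moved each change up by 0.18, and TPM moved it up by 0.26. As deposited, the counting intervals of 4 genes lay above 0 and those of 5 below it. Under either other scaling the intervals of GYS1 and GYG1 reached across 0, with 4 genes above and 3 below. The share of all genes with an interval on one side of 0 was not computed, so these counts have no background. With counting error alone, many reads make small differences clear 0. Under TPM, UGP2 (1.08) and PPP1R3B (1.11) passed the 2-fold rule, where 8.39% of all genes were higher and 2.88% lower. With total reads 0 of the 9 were higher on the scale with 1 FPKM added, beside 2.71% of all genes, and 1 was lower, beside 1.71%. PPP1R3C was past the rule on the lower side under every scaling, at -1.53 under TPM.

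**Figure D3:**
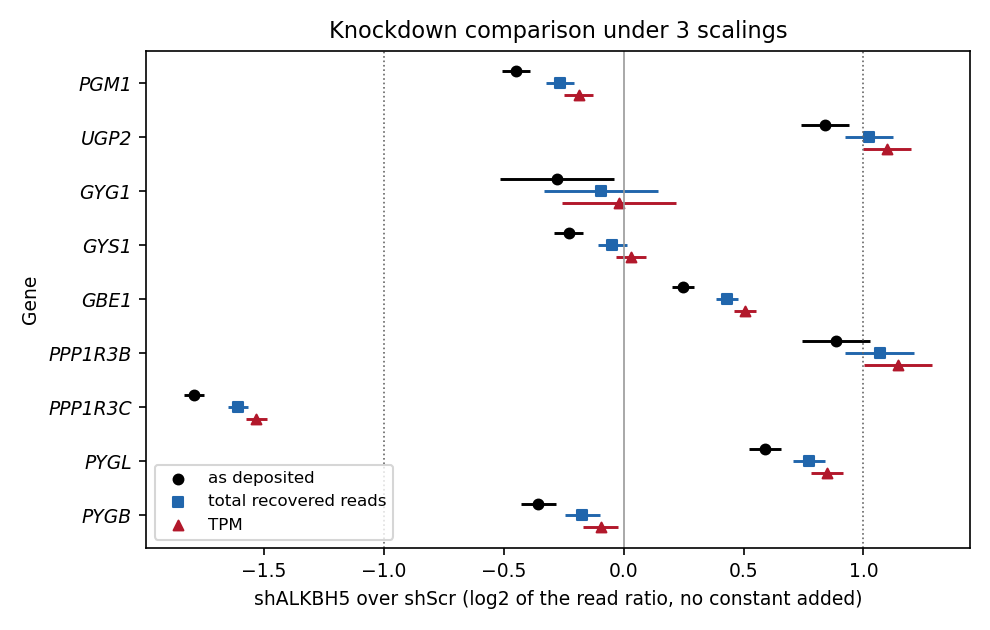
Log2 of the read ratio, shALKBH5 over shScr, with no constant added, for each of the 9 genes under 3 scalings; bars are 95% exact counting intervals and dotted lines mark 2-fold. PPP1R3C lies left of the lower line at all 3 scalings (-1.79 as deposited), while the bars of GYS1 and GYG1 reach across 0 and the points of UGP2 and PPP1R3B cross the upper line with total reads and with TPM.

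Among the other 45 pathway genes, 33 passed the filter in the shRNA table, 1 was at least 2-fold higher and none lower, with a median change of 0.004. That is 3.03% of the list higher and 0% lower, beside 1.76% and 3% of all genes. The gene that passed was PRKAB2, at 4.78 FPKM in shScr and 11.6 FPKM in shALKBH5 (log2 change 1.12). It was the one gene of the wider lists called in both comparisons, a count with no all-gene share beside it. UGCG, which spends UDP-glucose on glucosylceramide, followed at 0.95. The lowest were HK1 (-0.79) and the phosphatase catalytic subunit PPP1CA (-0.73), both abundant. With no test over single libraries, these counts describe the 2 cultures and do not show that the pathway was unaffected.

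Taking both comparisons gene by gene, PPP1R3C was the one member past the rule in each, higher in hypoxia and lower with shALKBH5. The share of all genes past the rule in both comparisons was not computed, so this count has no background. The other 5 members that were at least 2-fold higher in hypoxia had changes with shALKBH5 from -0.44 (PGM1) to 0.80 (PPP1R3B). Measured by distance over the log2 changes of both comparisons, the closest of 9256 other genes to PPP1R3C was NYAP1, at 3.41 in hypoxia and -1.22 with shALKBH5. SCD (3.60 and -1.0), CRABP2 (3.18 and -0.97), PGF (3.66 and -0.66) and ALDOC (4.52 and -1.03) came next. The nearest of these lay 0.61 away, and 4 libraries give only these 2 differences, so the likeness is a description. The comparisons share no library. Induction of PPP1R3C by hypoxia in the shRNA cells was not measured, as both shRNA libraries were hypoxic.

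**Figure D4:**
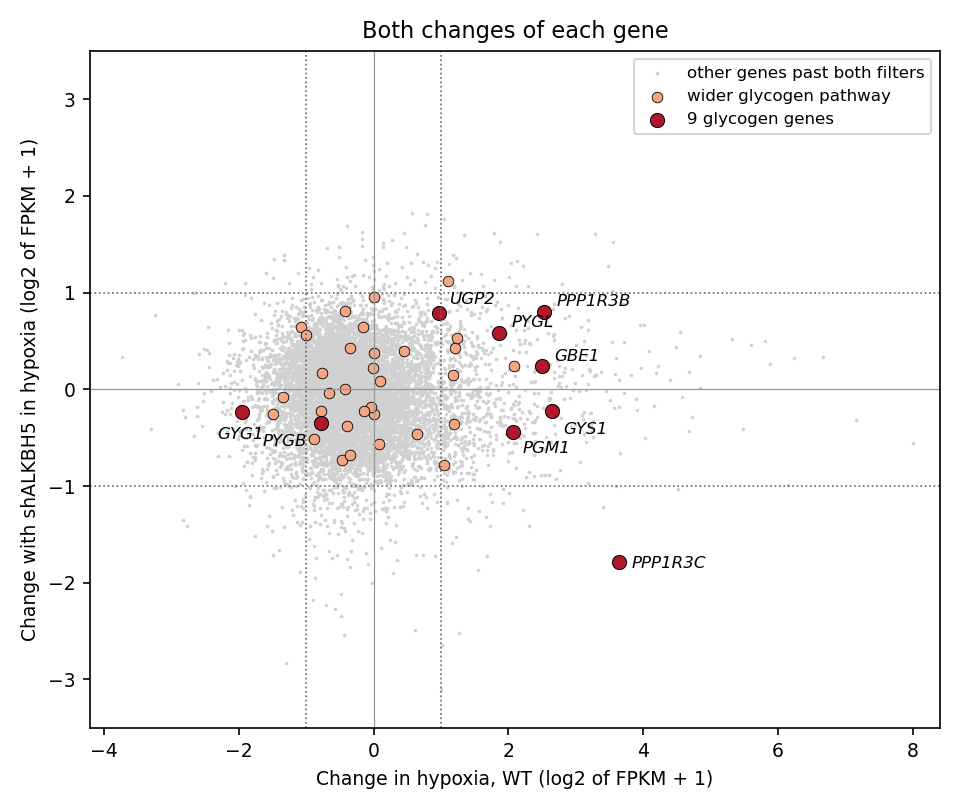
Log2 change with shALKBH5 (vertical) against log2 change in WT hypoxia (horizontal), both of FPKM + 1, with 1 point per gene past the filter in both tables; dotted lines mark 2-fold. PPP1R3C sits alone among the 9 glycogen genes at lower right (3.64 and -1.78), the other induced members lie between the horizontal dotted lines, and GYG1 and PYGB lie to the left of 0.

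Because ALKBH5 acts on m6A, which lies in a consensus that includes the letters GGACT, this 5-base string was counted in the longest protein-coding transcript of each gene in GENCODE release 29. PPP1R3C held 3 copies in 2524 bases, or 1.19 per kilobase, against a median of 0.942 over 9586 genes. GYS1 held the most per kilobase of the 9 genes, at 1.96, and GYG1 held none. The string marks no methylated site, and m6A was not measured in these libraries.

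Exons of 3 of the genes overlap those of a gene on the other strand. PGM1 shares 197 bases with ITGB3BP, PYGL 180 bases with AL358334.3 and PPP1R3B 245 bases with AC022784.5, at most 4.68% of the member's exons. The overlapping genes stood at no more than 1.83 FPKM in the shRNA libraries. No source used here says whether strand was used in counting, so reads of these short stretches could be assigned to either gene.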

How the data were processed

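Transcripts were measured by RNA-seq in 4 libraries of U87 cells, 1 per group. RNA came from Trizol extraction and went into NEBNext Ultra libraries, per the labels' protocols. The authors deposited FPKM values in 2 tables, each with its own normalisation, and no change was computed between tables. The submitters' processing notes name hg19, but start and end equalled those of GENCODE release 29 (GRCh38) in 58690 of 58735 rows of the shRNA table. The aligner and the counter were not given in the sources used here. Gene lengths, per the file headers, stand beside the shRNA values. Reads were recovered as FPKM times length, divided by the smallest nonzero product in the library, which was taken as 1 read. The results were whole numbers, within 0.01 read, in 100% of rows. The deposited FPKM divided by 83.2% of the recovered reads in shScr and by 94.5% in shALKBH5. Of the WT rows, 12 carry a date and 53 a bare number as symbol and were left out. Where a symbol was repeated in the shRNA table, the row with the highest mean was kept.

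Changes are log2(FPKM + 1), with a filter of 1 FPKM on the mean and a size rule of 2-fold. No test was possible across single libraries. The 2-fold rule and the counting intervals were run on simulated reads for the shRNA table that held counting error only. Variation between cultures was not simulated, so that run cannot show whether the calls would hold in another culture. Named genes were the 9 members, pathway genes past the rule, the 2 largest changes each way per comparison in the wider lists, the 5 genes nearest to PPP1R3C, and ALKBH5; PGM2, the minor isoforms and the markers were named besides to describe their lists. 1 gene of the wider lists, included in the counts, is not reported here by name. Members and lists were chosen with earlier results of these data known, and the count of GGACT was added after seeing the data. Hepatocyte and skeletal muscle markers stayed below 1 FPKM in all 4 libraries, and the values of the other marker lists stand beside the results. The tools were matplotlib 3.10.9, scipy 1.17.1, pandas 2.3.3 and numpy 2.4.6 under Python 3.11.15.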

Additional observations from a re-analysis of the deposited data

How the results depend on the processing

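Results were recomputed with 0.1 FPKM added in place of 1, without the filter or with one of 5 FPKM, centred on the median gene, as TPM, and at 1.5-fold and 3-fold, and in the shRNA table also with total recovered reads and with repeated symbols summed. The members all passed both other filters and had no repeated symbol that altered a value, so those settings could not change them. Of 63 changes of single members under the other scalings and the smaller constant, 59 kept their direction and their side of the 2-fold rule. GYS1 with shALKBH5 turned to 0.030 under TPM, and 3 passed the rule, namely UGP2 in hypoxia when centred (1.32) and, under TPM with shALKBH5, UGP2 (1.08) and PPP1R3B (1.11). In hypoxia the median member change was 2.41 when centred. At 1.5-fold, 7 members were higher and 2 lower, and in the wider pathway 8 genes were higher and 9 lower. At 3-fold the wider pathway had 1 higher and 0 lower. It had 3 higher at 5 FPKM, and 1 lower when centred, beside 5.73% of all genes. Shares of all genes were not computed at 1.5-fold, 3-fold, 5 FPKM or 0.1 FPKM in either comparison. Counts under those settings therefore have no background beside them. With shALKBH5 the median member change of -0.23 turned to 0.030 under TPM and was -0.046 with total reads. Members at least 2-fold higher were 2 under TPM, and 2 passed 1.5-fold. The wider pathway, with 1 higher as deposited, had 3 of 35 higher under TPM and 2 of 32 with total reads. Of all genes 8.39% and 2.71% were higher under those scalings. The wider pathway had 3 higher and 1 lower at 0.1 FPKM, 5 higher and 4 lower at 1.5-fold, and 0 higher at 3-fold. Counted as reads, the shALKBH5 share of PPP1R3C among targeting subunits was 67.5%, and with shScr 89.6%. No paired analysis was possible because each group has 1 library. Depth is unknown for the WT table, so no counting error can be given there. In the shRNA table every member had at least 279 reads.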
